A study of Mus musculus with 18 samples.

Results

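The genes described here are 40 mouse genes of the cell cycle and of DNA replication, chosen by symbol from a fixed list and found as 40 of the 45706 rows of the deposited count table. All 40 passed the filter on low counts. They fall into 12 genes of replication licensing and the replicative helicase, 9 genes of DNA synthesis and nucleotide supply, the 2 E-type cyclins, 11 mitotic cyclins, kinases and checkpoint genes, and 6 genes of the spindle, the chromosomes and proliferation. The 21 genes of the first pair of groups are called replication genes and the 17 genes of the last pair mitosis genes.

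RNA was sequenced from cultured bone marrow-derived macrophages of C57BL/6 mice, with a labelled age of 12 days. The cells were wild-type or carried the genotype labelled RelA-TA-KI, which names RelA, a subunit of the transcription factor NF-kappaB. Both genotypes were cultured for 6 days in medium conditioned by L929 cells, a source of the macrophage growth factor CSF1, and were then left unstimulated or received LPS, a bacterial cell-wall component, at 100 ng/ml, or the cytokine TNF at 10 ng/ml. Cells were taken 0.5, 1, 3 and 8 h later, so that the 18 libraries cover 9 conditions, each with 1 library of either genotype.

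Before DNA can be copied, ORC, CDC6 and CDT1 load the MCM ring onto origins, and CDC45 and the GINS complex then turn the ring into the active helicase. Cyclin E and cyclin A drive entry into and passage through S phase, and cyclin B with CDK1 drives mitosis. Many replication genes are known targets of E2F transcription factors, whereas many mitosis genes carry a promoter element called the cell cycle genes homology region (CHR), bound by the DREAM and MuvB complexes. Macrophages grown with CSF1 divide in culture, and strong activation by LPS is known to stop that division.

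Library totals ran from 4663650 to 6721917 counts. The library of knock-in cells at 3 h of TNF had the lowest total. The 6 macrophage markers (Adgre1, Csf1r, Cd68, Lyz2, Itgam and Mertk) summed to 9230 to 12400 counts scaled to library size (CPM) in wild-type libraries and 8818 to 12190 CPM in RelA-TA-KI libraries, against at most 4.52 CPM for 5 erythroid and at most 1.94 CPM for 6 lymphocyte markers. The 6 progenitor markers summed to 16.2 to 34.6 CPM in wild-type libraries and 5.91 to 38.8 CPM in RelA-TA-KI libraries, and none was at 0 in every library. Neutrophil markers (5 genes) summed to 63.0 to 125 CPM in wild-type and 30.3 to 87.6 CPM in RelA-TA-KI libraries. Fibroblast markers (4 genes) summed to 97.4 to 183 CPM and 13.7 to 70.2 CPM, nearly all from Col1a1 and Col1a2. CPM here is scaled by TMM, which aligns the bulk of genes between libraries, so every level and fold is relative to that bulk. The labels name no separate animals or cultures. P-values therefore measure only the spread between these libraries, which may be technical, and genotype and culture cannot be told apart. In bulk RNA, fewer cycling cells and less RNA of these genes per cell cannot be told apart either.

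The promoters of the group are shown because the elements named above are those known for replication and for mitosis genes; their part in the results was not tested. RefSeq start-site windows on GRCm38.p6, the assembly also called mm10, were matched for 32 of the 40 genes, of which 18 are replication and 13 mitosis genes. Mcm4, Gins2, Recql4, Ccne2, Ccna2, Aurkb, Kif20a and Tpx2 were not matched. The 180 bases before the start are printed from 5′ to 3′ on the strand of the gene for 4 replication genes and 4 mitosis genes. Capitals mark matches, on either strand, to an E2F-type motif (TTCCCGC, its variants TTGGCGC with TTCGCGC, also TTGCCGC) or to the CHR (TTTGAA, sometimes TTCGAA), and neighbouring matches may overlap. The first 4 sequences belong to Mcm5 and Mcm6, subunits of the MCM ring, to Rrm1, the large subunit of ribonucleotide reductase, and to Uhrf1, which brings maintenance DNA methylation to replicated DNA. The next 4 belong to Cdk1, the mitotic kinase, to Cdc20, the activator of the anaphase-promoting complex, to Kif11, a spindle motor, and to Top2a, a DNA topoisomerase.
Mcm5 (chr8:75109329-75109508, plus strand): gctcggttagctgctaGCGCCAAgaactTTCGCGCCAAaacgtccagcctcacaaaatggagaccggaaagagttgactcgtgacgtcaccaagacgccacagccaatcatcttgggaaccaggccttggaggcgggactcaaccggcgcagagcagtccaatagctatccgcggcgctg
Mcm6 (chr1:128359706-128359885, minus strand): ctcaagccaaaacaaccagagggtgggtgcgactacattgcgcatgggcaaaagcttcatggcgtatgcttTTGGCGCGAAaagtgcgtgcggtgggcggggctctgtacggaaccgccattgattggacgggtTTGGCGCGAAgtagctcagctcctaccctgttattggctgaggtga
Rrm1 (chr7:102441515-102441694, plus strand): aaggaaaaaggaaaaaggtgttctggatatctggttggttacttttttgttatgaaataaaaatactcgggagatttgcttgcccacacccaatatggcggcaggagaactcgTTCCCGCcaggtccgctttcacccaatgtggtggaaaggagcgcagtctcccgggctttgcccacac
Uhrf1 (chr17:56303157-56303336, plus strand): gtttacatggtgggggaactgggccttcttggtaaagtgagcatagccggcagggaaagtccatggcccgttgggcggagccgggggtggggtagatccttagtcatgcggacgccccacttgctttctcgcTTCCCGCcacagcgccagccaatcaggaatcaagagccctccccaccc
Cdk1 (chr10:69352913-69353092, minus strand): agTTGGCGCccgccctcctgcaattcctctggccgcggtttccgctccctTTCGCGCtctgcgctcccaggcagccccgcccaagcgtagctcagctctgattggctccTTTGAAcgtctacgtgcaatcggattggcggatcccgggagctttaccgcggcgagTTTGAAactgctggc
Cdc20 (chr4:118437344-118437523, minus strand): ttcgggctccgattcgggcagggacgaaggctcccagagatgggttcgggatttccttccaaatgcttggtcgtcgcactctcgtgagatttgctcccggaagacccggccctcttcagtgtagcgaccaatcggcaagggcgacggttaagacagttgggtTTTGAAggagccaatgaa
Kif11 (chr19:37376202-37376381, plus strand): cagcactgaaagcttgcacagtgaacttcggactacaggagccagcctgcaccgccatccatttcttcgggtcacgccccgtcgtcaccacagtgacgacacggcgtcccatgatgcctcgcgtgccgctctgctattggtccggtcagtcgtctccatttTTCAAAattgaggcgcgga
Top2a (chr11:99024190-99024369, minus strand): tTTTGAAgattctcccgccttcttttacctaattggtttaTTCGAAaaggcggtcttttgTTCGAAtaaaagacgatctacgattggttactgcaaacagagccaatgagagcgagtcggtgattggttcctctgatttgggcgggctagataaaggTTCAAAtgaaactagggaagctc

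Within the whole window, which runs from 250 bases before to 50 bases after the start, an E2F-type match was found in 13 of 18 replication genes (72.2%) and in 3 of 13 mitosis genes (23.1%). All 27025 genes with a window held one in 10.9% of cases. A CHR match was found in 4 of 18 replication genes (22.2%) and 11 of 13 mitosis genes (84.6%), against 21.7% of all genes. The CCAAT box, bound by NF-Y, was found in 12 of 18 replication genes (66.7%), 12 of 13 mitosis genes (92.3%) and 41.1% of all genes. A match is a run of letters and not a mapped binding site. Pcna, Mcm10, Tyms, Ccne1 and Birc5 held neither an E2F-type nor a CHR match in this window.

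In unstimulated cells both sets of genes were expressed at like levels per length. The median was 24.4 RPKM (CPM per kilobase of exon) over replication genes and 20.8 RPKM over mitosis genes in wild-type cells, and 22.1 and 19.9 RPKM in knock-in cells. Pcna, the sliding clamp of DNA polymerases, was highest per length, at 84.3 RPKM in wild-type and 84.1 RPKM in knock-in cells. Rrm1 came next at 67.7 and 59.6 RPKM, before Mki67, which encodes the proliferation antigen Ki-67, at 55.1 and 57.1 RPKM. The lowest was Recql4, a helicase of replication initiation, at 2.08 and 1.51 RPKM. Raw counts of single members in single libraries ran from 0 to 5246, and the low ones, such as those of Recql4, are the least precise.

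**Figure D1:**
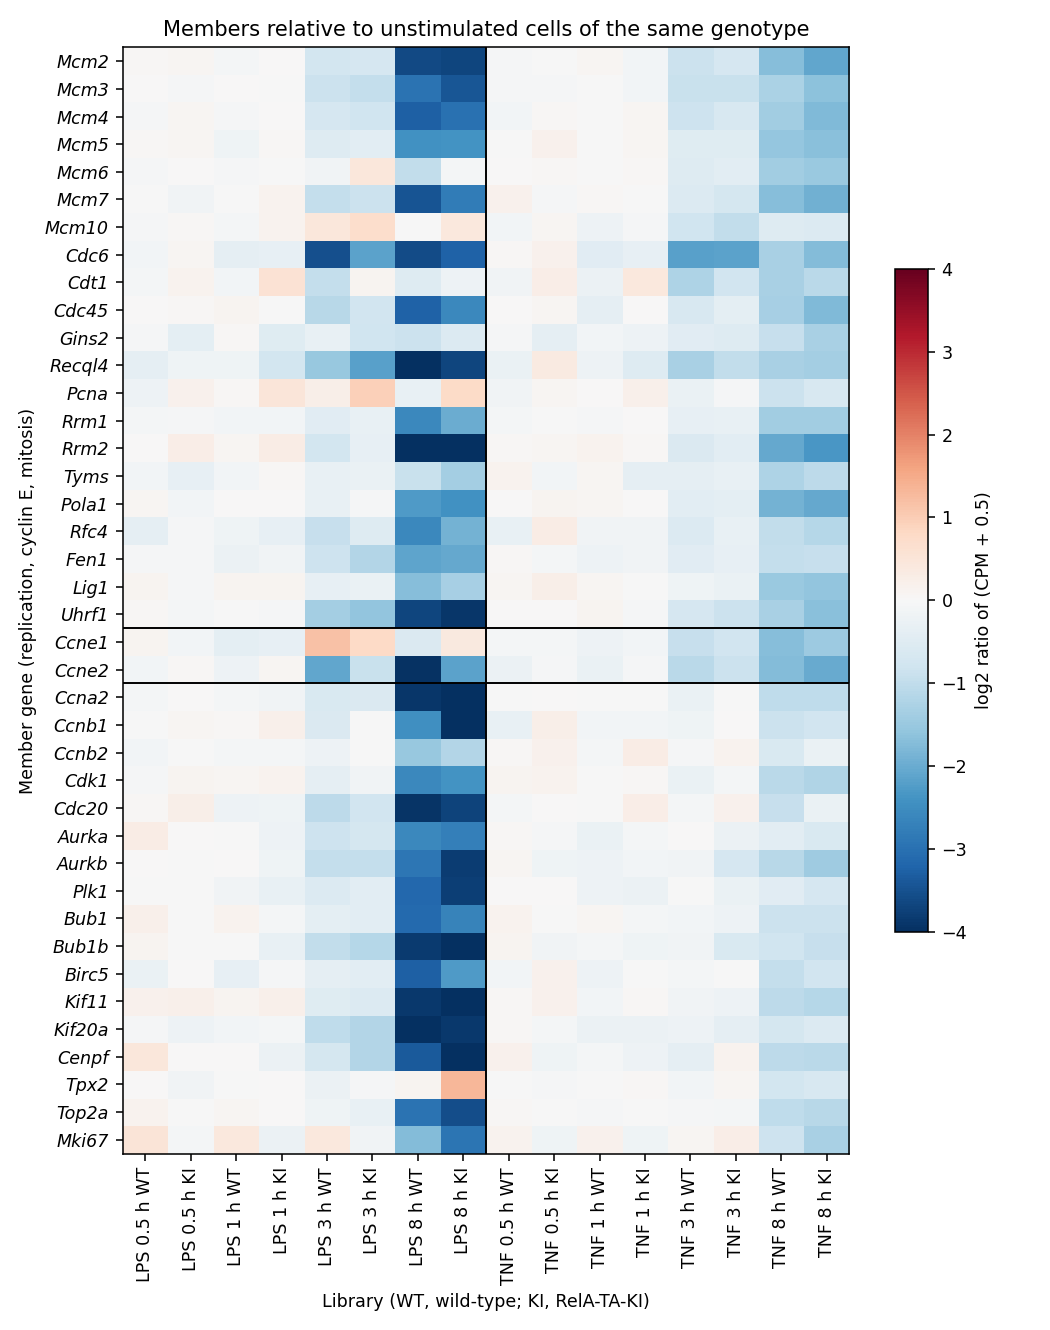
Log2 ratio of each of the 40 genes (rows, ordered by role) to the unstimulated library of the same genotype, in the 16 stimulated libraries (columns); colours saturate at a ratio of 4 in either direction. The 0.5 and 1 h columns are near 0, TNF at 3 h is low mainly in the replication rows, and nearly all rows are low at 8 h of LPS.

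No change of the 40 genes was called within the first hour. After 0.5 h and 1 h of LPS or TNF, 0 of 40 genes passed an adjusted p of 0.05 (edgeR's quasi-likelihood test with Benjamini-Hochberg adjustment over 11308 genes), while 0.92% of all tested genes were called at 0.5 h and 6.84% at 1 h of LPS, and 0.38% and 1.07% at those times of TNF. At an unadjusted p under 0.05 the members numbered 0, 0, 0 and 1 in these 4 comparisons, and DESeq2 and limma-voom called 0 as well. LPS against TNF gave 0 members too, with 0 and 2 at an unadjusted p under 0.05, beside 0.0442% of genes at 0.5 h and 1.2% at 1 h. The median change over the 40 genes lay between -0.04 and 0.00 on the log2 scale for both stimuli at both times.

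By 3 h the replication genes had fallen after both stimuli, and the mitosis genes mainly after LPS. After 3 h of LPS 28 of 40 genes were lower and 3 were higher, where 22.7% of tested genes were lower and 24.8% higher. After 3 h of TNF 17 of 40 were lower and 0 higher, where 5.86% of tested genes were lower and 7.6% higher. Split by role, LPS lowered 15 of 21 replication and 12 of 17 mitosis genes, and TNF lowered 14 of 21 replication genes and 1 of 17 mitosis genes. The median log2 change at 3 h was -0.53 over replication and -0.48 over mitosis genes after LPS, and -0.50 over replication and -0.09 over mitosis genes after TNF. Both stimuli were set against the same pair of unstimulated libraries. Leaving out a library changed the TNF count most: it was 8 members without the wild-type unstimulated library, 10 without wild-type TNF at 3 h, 9 without the knock-in unstimulated library and 8 without knock-in TNF at 3 h, of which 8, 9, 9 and 8 were replication genes.

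Single libraries showed the same order of the medians in both genotypes. At 3 h of TNF the median log2 ratio to the unstimulated library was -0.55 over replication and -0.10 over mitosis genes in wild-type cells, and -0.48 and -0.08 in knock-in cells. All 21 replication genes were below the unstimulated level in each genotype, against 15 of 17 mitosis genes in wild-type and 11 of 17 in knock-in cells. At 3 h of LPS the medians were -0.74 and -0.55 in wild-type and -0.52 and -0.43 in knock-in cells, and the medians over all tested genes lay between -0.02 and 0.00 in these 4 libraries.

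**Figure D2:**
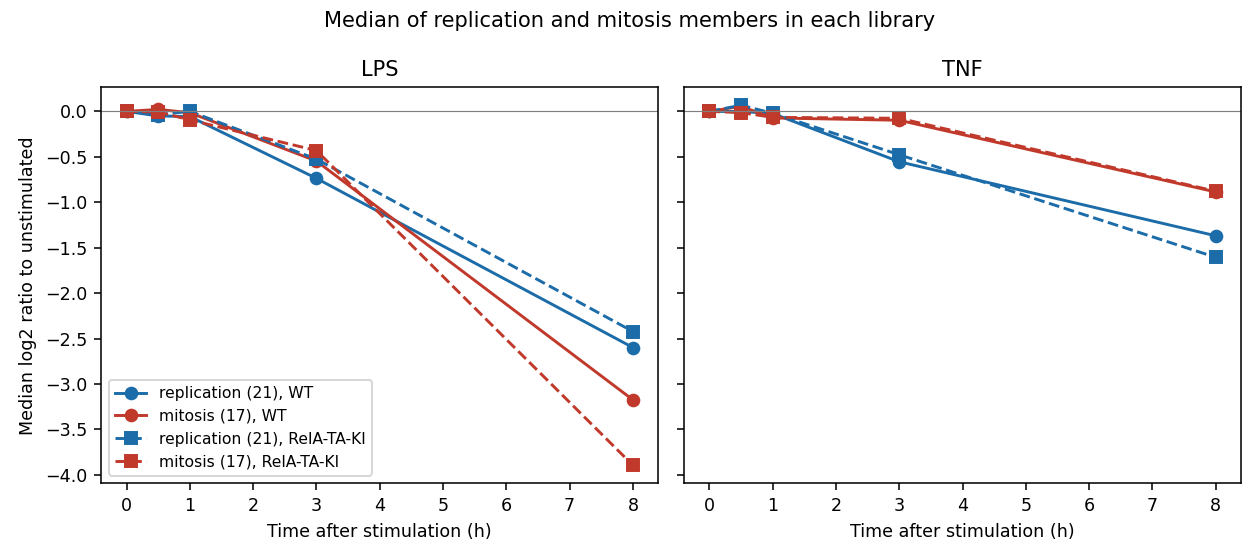
Median log2 ratio to the unstimulated library of the same genotype (vertical axis) against hours of LPS or TNF (horizontal axis) for the 21 replication and the 17 mitosis genes, 1 point per library. At 3 h of TNF the replication medians are -0.55 and -0.48 and the mitosis medians -0.10 and -0.08; at 8 h of LPS the mitosis medians are the lower ones.

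Of the MCM ring, 5 of the 6 subunits had fallen by 3 h of either stimulus. Mcm2 stood at 135 CPM in unstimulated wild-type cells and at 138, 129, 80.8 and 10.7 CPM after 0.5, 1, 3 and 8 h of LPS. After TNF the wild-type values were 130, 141, 74.1 and 41.6 CPM at the same times. In knock-in cells Mcm2 went from 115 CPM to 121, 115, 71.4 and 8.56 CPM after LPS and to 114, 107, 71.3 and 26.7 CPM after TNF. The 4 libraries at 3 h and the 4 at 8 h lay below all 10 unstimulated and early libraries, and the LPS libraries at 8 h were the lowest. Mcm2 fell by 0.71 ± 0.11 at 3 h of LPS (log2 fold change ± SE over 2 libraries against 2, adjusted p = 0.00016) and by 0.78 ± 0.11 at 3 h of TNF (adjusted p = 0.00066).

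The other ring subunits Mcm3, Mcm4, Mcm5 and Mcm7 fell by 0.48 to 0.91 at 3 h of LPS and by 0.48 to 0.90 at 3 h of TNF, each past the threshold. For Mcm2 to Mcm5 these calls held in every alternative run, and that of Mcm7 at 3 h of TNF was lost without the knock-in TNF library. Mcm6 was the exception, with a log2 change of 0.17 ± 0.19 after LPS (adjusted p = 0.50) and -0.48 ± 0.19 after TNF (adjusted p = 0.13).

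Cdc6, the loader of the ring, showed the deepest fall of the 40 genes at 3 h of either stimulus. Its 3 h LPS values rest on 8 counts in wild-type and 19 counts in knock-in cells. Unstimulated wild-type cells held 24.9 CPM, and 0.5, 1, 3 and 8 h of LPS left 23.1, 19.1, 1.71 and 1.61 CPM. TNF left 25.8, 18.2, 5.12 and 9.72 CPM at those times. Knock-in cells went from 21.0 CPM to 22.2, 16.4, 4.35 and 1.77 CPM with LPS and to 23.6, 16.8, 4.38 and 5.94 CPM with TNF. At 3 h all 4 stimulated libraries were far under the unstimulated pair, and the TNF libraries were no lower at 8 h than at 3 h. At 3 h Cdc6 fell by 2.93 ± 0.27 after LPS (adjusted p = 1.2e-06) and by 2.26 ± 0.23 after TNF (adjusted p = 8.6e-05), and the difference between TNF at 8 h and at 3 h was 0.72 ± 0.28 (adjusted p = 0.10).

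Uhrf1 fell after both stimuli, and further after LPS than after TNF. Wild-type values were 104 CPM unstimulated, 107, 102, 40.1 and 7.75 CPM along LPS and 105, 112, 64.7 and 41.8 CPM along TNF. Knock-in values were 94.0 CPM unstimulated, 89.4, 90.2, 31.1 and 5.91 CPM along LPS and 95.6, 90.3, 51.0 and 29.1 CPM along TNF. At both late times the LPS libraries of either genotype lay under the TNF libraries. The difference, LPS minus TNF, was -0.70 ± 0.10 at 3 h (adjusted p = 0.00018) and -2.37 ± 0.15 at 8 h (adjusted p = 3.2e-08).

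The remaining replication genes were split at 3 h. Cdc45, the helicase cofactor, fell by 0.97 after LPS and 0.54 after TNF, and Fen1, the flap nuclease of Okazaki fragments, fell by 1.01 and 0.40. Recql4 fell by 2.0 and 1.3 on the fitted scale and Rrm2, the small subunit of ribonucleotide reductase, by 0.53 and 0.50. Gins2 (by 0.53), Rrm1 (by 0.37), the clamp loader subunit Rfc4 (by 0.75) and the ligase Lig1 (by 0.29) were called lower after LPS and not after TNF, where their values were -0.49, -0.32, -0.45 and -0.21. Cdt1 (-1.02), Mcm10 (-0.89) and Pola1, the catalytic subunit of polymerase alpha (-0.40), were called lower after TNF and not lower after LPS, where their values were -0.43, 0.57 and -0.18. Tyms, thymidylate synthase, was called after neither, at -0.28 and -0.34, and Pcna was not called after TNF, at -0.17. The LPS calls of Rrm1 (-0.33 and -0.32), Rrm2 (-0.36 and -0.49) and Rfc4 (-0.62 and -0.63) were lost without wild-type LPS at 3 h or the wild-type unstimulated library, and that of Gins2 (-0.39 and -0.41) without the knock-in libraries of those conditions. Lig1's LPS call was lost without any 1 of 8 of the 18 libraries, with DESeq2 and with no filter on low counts. No difference between stimuli passed at 3 h for Gins2, Recql4, Rrm1, Rrm2, Tyms, Pola1, Rfc4, Lig1 or Cdc45. The TNF calls of Recql4, Rrm2, Pola1 and Fen1 were each lost without any 1 of the 4 libraries compared, Cdt1's was lost without the wild-type unstimulated library (-0.74), and Cdc45's was lost in most of the alternatives that left out a library.

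Mitosis genes were set apart by LPS at 3 h. Cdc20 stood at 31.5 CPM in unstimulated wild-type cells and at 32.6, 27.6, 15.1 and 1.61 CPM after 0.5, 1, 3 and 8 h of LPS, but at 29.6, 31.2, 30.1 and 16.4 CPM after TNF. Knock-in cells held 25.5 CPM unstimulated, 30.3, 22.5, 14.6 and 1.48 CPM with LPS, and 26.0, 30.4, 28.8 and 21.0 CPM with TNF. At 3 h the TNF libraries stayed within the range of the early libraries in both genotypes and the LPS libraries did not. The change was -0.94 ± 0.15 after LPS (adjusted p = 0.00017) and 0.04 ± 0.13 after TNF (adjusted p = 0.91), and LPS minus TNF was -0.98 ± 0.15 (adjusted p = 0.00024).

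The mitosis genes lower in LPS than in TNF at 3 h numbered 9 of 17, and 0 were higher, where 14.4% of tested genes were lower and 16.9% higher. Besides Cdc20 they were Kif20a, a cytokinesis motor (-0.83), Cenpf, a kinetochore protein (-0.86), the checkpoint kinase Bub1b (-0.71), the mitotic kinases Aurka (-0.69), Aurkb (-0.59) and Plk1 (-0.34), cyclin A2, Ccna2 (-0.46), and Kif11 (-0.35). The calls of Cdc20, Kif20a, Bub1b, Aurka and Ccna2 held in every alternative run. Plk1's was lost in most of those that left out a library, Cenpf's without knock-in LPS at 3 h (-0.70) or knock-in TNF at 3 h (-0.48), Aurkb's without wild-type LPS at 3 h (-0.49) or wild-type TNF at 3 h (-0.34), and Kif11's without knock-in LPS at 3 h (-0.31) or wild-type TNF at 3 h (-0.30). The other mitosis genes, Ccnb1, Ccnb2, Cdk1, Bub1, Birc5, Tpx2, Top2a and Mki67, had differences of -0.34 to -0.06. Among replication genes at 3 h, 2 were lower in LPS than in TNF (Uhrf1 and Fen1, -0.61) and 4 were higher (Mcm6, Mcm10, Cdt1 and Pcna).

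**Figure D3:**
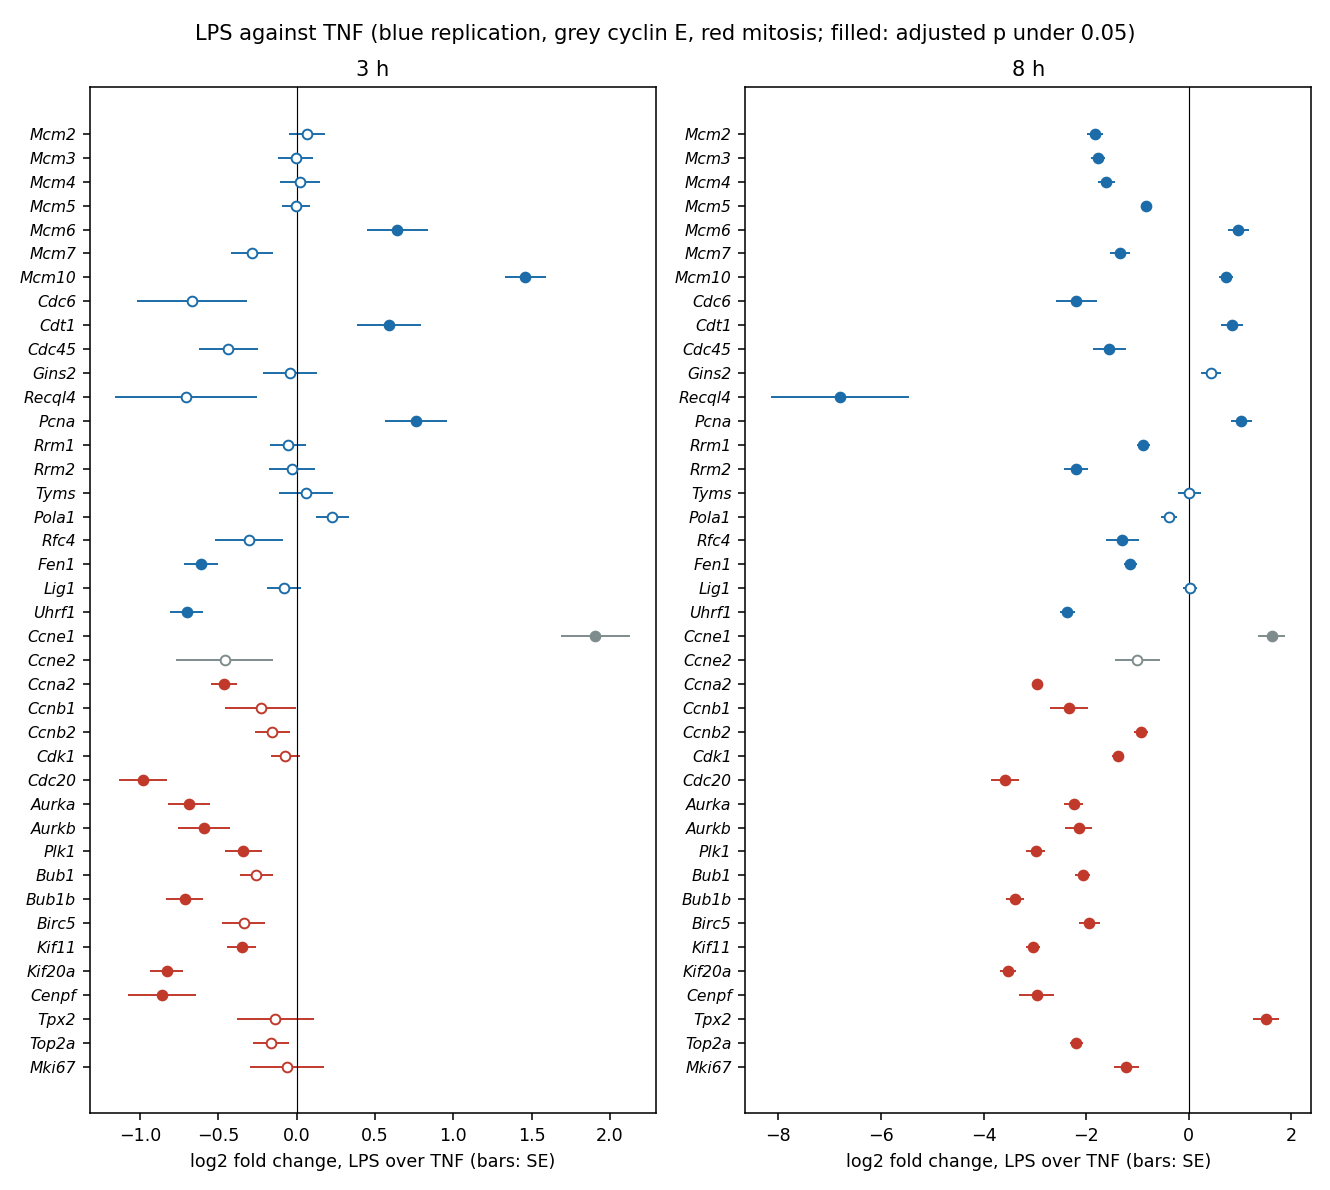
Log2 fold change of LPS over TNF (horizontal axis, bars are standard errors) for the 40 genes at 3 h and 8 h, in blue for replication, grey for cyclin E and red for mitosis genes, filled where the adjusted p is under 0.05; the dot of Recql4 at 8 h rests on 0 counts after LPS. The 17 mitosis genes all lie left of 0 at 3 h, and at 8 h 16 of them lie far left while Tpx2 lies right of 0.

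Against the unstimulated cells, 12 mitosis genes fell at 3 h of LPS. The deepest falls were those of Kif20a (-1.11 ± 0.10, adjusted p = 1.6e-06), Bub1b (-1.08), Aurkb (-0.97), Cenpf (-0.95), Cdc20 and Aurka (-0.78), followed by Ccna2 (-0.60), Kif11 (-0.53), Plk1 (-0.48), the checkpoint kinase Bub1 (-0.41), the chromosomal passenger Birc5 (-0.40) and Cdk1 (-0.25). Ccnb1 (-0.33 ± 0.22) and Ccnb2 (-0.11 ± 0.11), the B-type cyclins, and Top2a (-0.24 ± 0.11), Tpx2 (-0.15 ± 0.25) and Mki67 (0.14 ± 0.23) did not pass. Calls at 3 h of LPS were lost for Birc5 without knock-in LPS at 3 h (-0.27) or the wild-type unstimulated library (-0.28), for Bub1 without the knock-in unstimulated library (-0.35), for Plk1 without wild-type LPS at 3 h (-0.37), and for Cdk1 in most settings that left out a library. After TNF the only call was Bub1b, at -0.36 ± 0.11 (adjusted p = 0.04), and its count of 1 became 0 without any 1 of 13 of the 18 libraries, with DESeq2 and with no filter on low counts.

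After 8 h of LPS nearly every gene of the group was low. The test called 35 of 40 lower and 1 higher, where 33.9% of tested genes were lower and 33.8% higher. The lower genes were 18 of 21 replication genes, 16 of 17 mitosis genes and Ccne2, with a median log2 change of -2.39 over replication and -3.25 over mitosis genes, against medians of -0.04 over all tested genes in each genotype's library. The median gene of the mitosis set stood at 11.0% of its unstimulated level in wild-type and at 6.57% in knock-in cells, and that of the replication set at 16.5% and 18.6%. Levels under 20% of the unstimulated level in both genotypes were found for 10 of 21 replication and 14 of 17 mitosis genes. The share of all tested genes under 20% was not worked out. The summed progenitor markers were lowest at 8 h of LPS as well, at 16.2 CPM from 27.8 CPM unstimulated in wild-type cells and at 5.91 CPM from 14.9 CPM in knock-in cells. At 8 h of TNF they stood at 19.1 and 38.8 CPM. Most of the knock-in change was that of Kit, at 8.61 CPM unstimulated, 0.886 CPM at 8 h of LPS and 32.5 CPM at 8 h of TNF. Flt3 went the other way in knock-in cells at 8 h of LPS, from 0.538 to 1.18 CPM, and the other progenitor markers were lower. The part of these markers in the falls was not tested. The median ratios of the group at 8 h of LPS were -2.60 (replication) and -3.18 (mitosis) in wild-type cells and -2.42 and -3.90 in knock-in cells.

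Among the replication genes Rrm2 went from 117 to 6.78 CPM in wild-type cells and from 105 to 3.84 CPM in knock-in cells at 8 h of LPS, where it fell by 4.39 ± 0.21 on the log2 scale (adjusted p = 6.7e-10). Falls of 2 or more on the log2 scale were also found for Mcm2, Mcm3, Mcm4, Mcm5, Mcm7, Cdc6, Cdc45, Rrm1, Pola1, Rfc4, Fen1 and Uhrf1. Smaller falls were those of Lig1 (-1.53), Tyms (-1.15), Gins2 (-0.69) and Mcm6 (-0.48 ± 0.20, adjusted p = 0.047), and the last was lost with DESeq2 and in most settings that left out a library. Recql4 had 99 counts in the unstimulated pair, 7.25 CPM, and 0 counts in both LPS libraries, which with a floor of 3 counts over the group is at least 15.7-fold lower. The median over replication genes was -2.39 with Recql4 at that bound as well.

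Every mitosis gene but 1 fell at 8 h of LPS. Top2a, the most counted of them after Mki67, stood at 449 CPM in unstimulated wild-type cells and at 498, 472, 397 and 57.2 CPM after 0.5, 1, 3 and 8 h of LPS. Its TNF values in wild-type cells were 460, 437, 431 and 222 CPM. In knock-in cells the unstimulated value of 411 CPM was followed by 402, 415, 333 and 34.5 CPM with LPS and by 407, 404, 385 and 192 CPM with TNF. Only the 8 h libraries lay far from the rest, and those of LPS lay far under those of TNF. Top2a fell by 3.25 ± 0.13 at 8 h of LPS (adjusted p = 1.5e-10) and by 1.06 ± 0.12 at 8 h of TNF (adjusted p = 1.2e-05).

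The deepest mitosis falls at 8 h of LPS were those of Bub1b (-4.25), Cdc20 (-4.19), Kif20a (-4.15), Kif11 (-4.13), Cenpf (-4.04) and Ccna2 (-3.99), and the smallest that of Ccnb2 (-1.37 ± 0.13, adjusted p = 4.4e-07). Between them lay Plk1 (-3.54), Aurkb (-3.41), Ccnb1 (-3.17), Bub1 (-2.94), Birc5 (-2.81), Aurka (-2.76), Cdk1 (-2.52) and Mki67 (-2.29). Ccnb1 rested on few counts there, with 5.49 CPM in wild-type cells and 0.886 CPM in RelA-TA-KI cells, the latter from 3 counts. Cdc20 did as well, with 5 counts in each genotype.

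**Figure D4:**
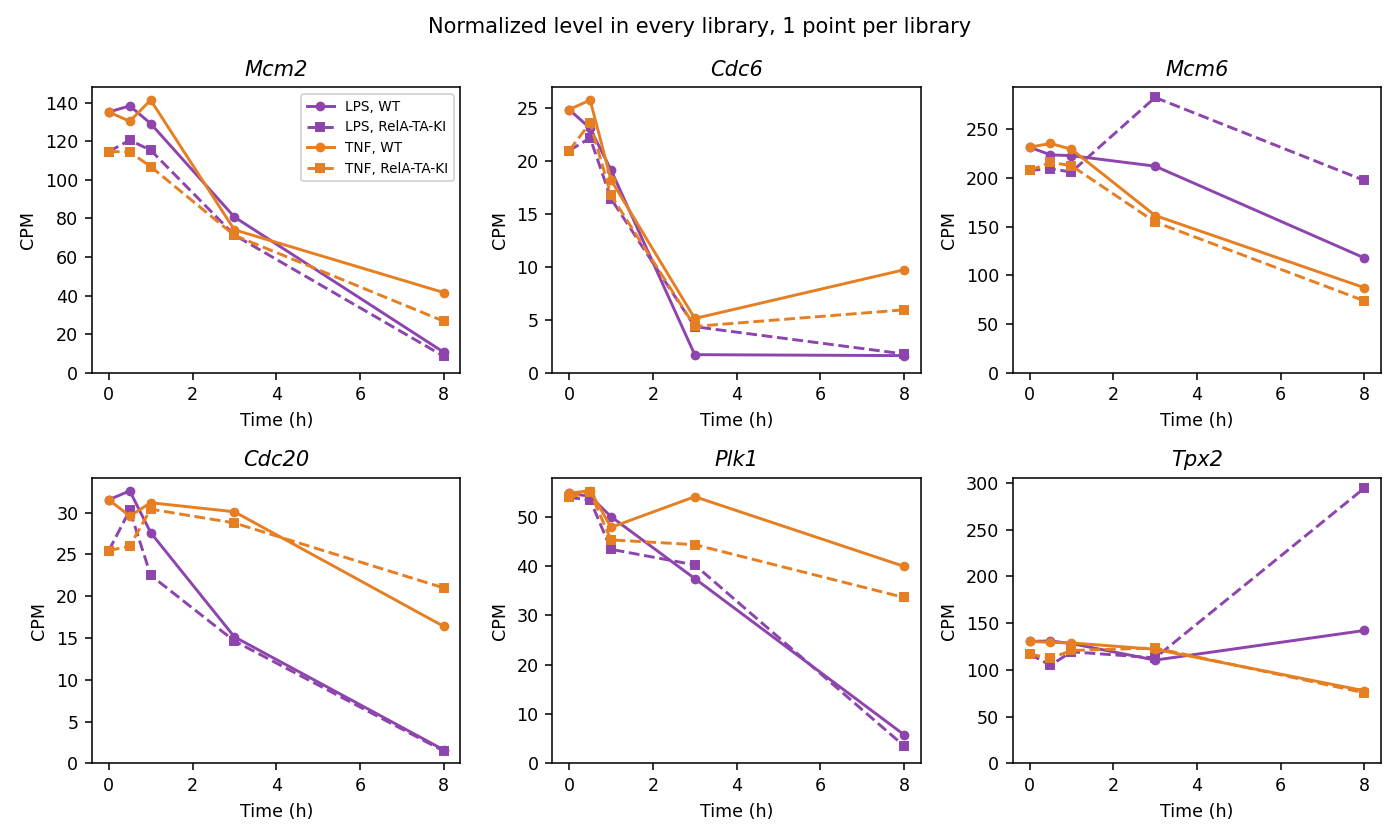
CPM of Mcm2, Cdc6, Mcm6, Cdc20, Plk1 and Tpx2 (linear axes from 0) against hours after LPS (purple) or TNF (orange), 1 point per library, with solid lines for wild-type and dashed lines for RelA-TA-KI cells. Mcm2 and Cdc6 are low at 3 h after both stimuli, Cdc20 is low at 3 h after LPS only, and Mcm6 and Tpx2 lie higher after LPS than after TNF at 8 h.

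TNF at 8 h lowered almost the whole group by a smaller amount. It called 39 of 40 genes lower and 0 higher, where 14.8% of tested genes were lower and 17.1% higher. All 21 replication genes, both E-type cyclins and 16 of 17 mitosis genes fell, with medians of -1.47 over replication and -0.87 over mitosis genes. The median replication gene stood at 38.5% of its unstimulated level in wild-type and 32.8% in knock-in cells, and the median mitosis gene at 54.0% and 54.3%. Per library the medians were -1.37 and -0.89 in wild-type and -1.61 and -0.88 in knock-in cells, so the replication set was the lower one after TNF in each genotype and the mitosis set the lower one after LPS.

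Within the replication set the falls at 8 h of TNF ran from -0.53 for Mcm10 to -2.20 for Rrm2. Mcm2 (-1.88), Mcm7 (-1.83) and Pola1 (-1.99) were among the deepest, and Mcm3, Mcm4, Mcm5 and Mcm6 fell by 1.46, 1.56, 1.60 and 1.45. Within the mitosis set they ran from -0.44 for Ccnb2 to -1.27 for Aurkb. Cdc20, Aurka, Plk1 and Kif20a fell by 0.61, 0.52, 0.56 and 0.63, and Ccna2, Cdk1 and Kif11 by 1.03, 1.13 and 1.10. Tpx2 did not pass, at -0.69 ± 0.25 (adjusted p = 0.053). Calls at this time were lost without knock-in TNF at 8 h or the wild-type unstimulated library for Mcm10 (-0.45 and -0.44) and Pcna (-0.69 and -0.54), and without wild-type TNF at 8 h or the wild-type unstimulated library for Ccnb2 (-0.34 and -0.34) and Cdc20 (-0.37 and -0.48). Aurka's was lost without knock-in TNF at 8 h (-0.47) or the knock-in unstimulated library (-0.46), Mki67's without the latter (-0.83), and Ccnb1's without either TNF library at 8 h (-0.88 and -0.81) or the wild-type unstimulated library (-0.74).

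Between 3 and 8 h the falls went on. After LPS 35 of 40 genes were lower at 8 h than at 3 h and 1 was higher, where 24.7% of tested genes were lower and 26.6% higher. After TNF 31 of 40 were lower and 0 higher, where 7.0% of tested genes were lower and 8.71% higher. The mitosis median moved by -2.84 with LPS and -0.75 with TNF in this interval, and the replication median by -1.91 and -0.82. For 16 of 17 mitosis genes the step from 3 to 8 h of TNF was itself a fall, although 1 of 17 had been called at 3 h. Leaving out single libraries gave 21 to 35 lower members for the TNF step and 32 to 36 for the LPS step.

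At 8 h LPS and TNF differed for most of the group. LPS was lower than TNF for 29 of 40 genes and higher for 6, where 28.4% of tested genes were lower and 30.0% higher. The lower genes were 13 of 21 replication and 16 of 17 mitosis genes, with median differences of -1.14 and -2.24. Cdc20 (-3.58 ± 0.27, adjusted p = 1.7e-07), Kif20a (-3.52), Bub1b (-3.38), Kif11 (-3.04) and Plk1 (-2.98) differed most among mitosis genes. The value of Cdc20 rests on 5 counts in each LPS library. Gins2 (0.44 ± 0.19), Tyms (0.02 ± 0.22), Pola1 (-0.39 ± 0.15), Lig1 (0.03 ± 0.13) and Ccne2 (-1.0 ± 0.43) did not pass, and by library totals Tyms and Lig1 turned to -0.69 and -0.68.

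The scaling between libraries bears on all of these counts. With library totals in place of TMM the median tested gene moved by -0.53 at 3 h and -0.95 at 8 h of LPS, and by -0.13 and -0.25 at those times of TNF. The share of called genes that were higher went from 52.2% to 17.3% at 3 h of LPS, from 49.95% to 18.5% at 8 h of LPS, from 56.4% to 31.8% at 3 h of TNF and from 53.6% to 24.8% at 8 h of TNF. For LPS against TNF it went from 54.05% to 16.6% at 3 h and from 51.3% to 17.4% at 8 h. Members lower than in TNF at 3 h were then 31 instead of 11, 14 of them replication and 16 mitosis genes. Over all tested genes the calls in either direction were then 6651 instead of 3539. The falls from the unstimulated level kept their direction and at least as many calls.

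A few genes of the group kept or exceeded their TNF level under LPS. Higher in LPS than in TNF at 3 h were Mcm6, Mcm10, Cdt1, Pcna and Ccne1, and at 8 h the same 5 and Tpx2. Among all tested genes 16.9% were higher in LPS than in TNF at 3 h and 30.0% at 8 h. Such calls were therefore no more frequent in the group than among all tested genes. Counts of higher members at 3 h were sensitive to libraries: 3 without wild-type TNF at 3 h, 2 without knock-in LPS at 3 h and 2 without knock-in TNF at 3 h. Scaling by library totals moved the median gene by -0.41 for LPS against TNF at 3 h and by -0.71 at 8 h, and left 2 higher members at each time, Mcm10 and Ccne1 at 3 h and Ccne1 and Tpx2 at 8 h.

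Ccne1, cyclin E1, rose at 3 h of LPS and fell after TNF. Wild-type cells held 27.0 CPM unstimulated, 28.8, 20.2, 62.0 and 18.1 CPM along LPS and 25.8, 23.1, 13.9 and 7.92 CPM along TNF. Knock-in cells held 23.1 CPM, then 21.4, 18.4, 40.5 and 30.4 CPM along LPS and 22.1, 21.3, 13.3 and 8.12 CPM along TNF. The 3 h LPS libraries were the highest of all in each genotype. The rise at 3 h of LPS was 1.02 ± 0.20 (adjusted p = 0.00091), and 0.49 by library totals, and the value at 8 h of LPS was -0.03 ± 0.23, or -0.99 by library totals. After TNF it fell by 0.88 ± 0.23 at 3 h (adjusted p = 0.021, lost without any 1 of the 4 libraries compared) and by 1.64 ± 0.25 at 8 h (adjusted p = 0.00020). LPS exceeded TNF by 1.90 ± 0.22 at 3 h (adjusted p = 1.9e-05) and by 1.62 ± 0.27 at 8 h (adjusted p = 0.00017). Ccne2, cyclin E2, went the other way at 3 h of LPS. It held 47.8 and 41.8 CPM unstimulated in wild-type and knock-in cells. LPS left 10.9 and 22.4 CPM at 3 h and 2.58 and 9.15 CPM at 8 h. After TNF Ccne2 fell like Ccne1, to 22.6 and 22.7 CPM at 3 h and to 13.9 and 9.90 CPM at 8 h. Its change at 3 h of TNF was -0.99, a call lost without any 1 of the 4 libraries compared and with no filter on low counts.

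Pcna was called higher at 3 h of LPS, a call that depended on scaling, filter and the knock-in libraries. Its wild-type values were 202 CPM unstimulated, 176, 207, 236 and 166 CPM along LPS and 185, 207, 170 and 111 CPM along TNF. In knock-in cells 202 CPM was followed by 228, 282, 395 and 341 CPM along LPS and by 215, 231, 194 and 130 CPM along TNF. With LPS the knock-in libraries stood above the wild-type ones at each time. Over both genotypes Pcna rose by 0.60 ± 0.20 at 3 h of LPS (adjusted p = 0.025), and the call was lost by library totals (0.06), without knock-in LPS at 3 h (0.38), without the knock-in unstimulated library (0.39) and with no filter on low counts (0.58). At 8 h of LPS it was at 0.26 ± 0.20 (adjusted p = 0.26), a value that turned to -0.70 by library totals.

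Mcm6 and Mcm10, the latter a helicase activator, also departed from the MCM ring. Mcm6 went from 232 CPM to 212 and 118 CPM at 3 and 8 h of LPS in wild-type cells and from 208 CPM to 283 and 198 CPM in knock-in cells, against 162 and 87.3 CPM and 155 and 73.8 CPM with TNF. Mcm10 went from 48.5 to 67.1 and 47.5 CPM in wild-type cells and from 38.0 to 61.5 and 51.4 CPM in knock-in cells with LPS, against 27.5 and 33.9 CPM and 19.2 and 26.1 CPM with TNF. For both genes the LPS libraries lay above the TNF libraries at both late times in each genotype. Mcm10 rose by 0.57 ± 0.12 at 3 h of LPS (adjusted p = 0.0014), or 0.04 by library totals, and its value at 8 h was 0.20 ± 0.13, or -0.75 by library totals. Cdt1 was higher in LPS than in TNF by 0.59 ± 0.20 at 3 h and 0.84 ± 0.21 at 8 h, which became 0.18 and 0.14 by library totals, neither of them called. The 3 h call of Cdt1 was also lost with limma-voom, with no filter on low counts and without any 1 of 9 of the 18 libraries, with 0.21 without knock-in LPS at 3 h, and the 8 h call without wild-type LPS at 8 h (0.72). The 3 h differences of Mcm6 (0.64) and Pcna (0.76) were not called by library totals, with no filter on low counts or without knock-in LPS at 3 h, where they were 0.41 and 0.55.

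Tpx2, a spindle assembly factor that activates Aurora A, was the only mitosis gene not low at 8 h of LPS. It held 130 CPM in unstimulated wild-type cells, 131, 128, 110 and 142 CPM along LPS and 129, 129, 122 and 77.6 CPM along TNF. Knock-in cells held 117 CPM, then 105, 119, 113 and 294 CPM along LPS and 112, 121, 123 and 75.4 CPM along TNF. The knock-in library at 8 h of LPS was the highest of the 18, and the wild-type library at that time was close to its unstimulated partner. The change at 8 h of LPS was 0.82 ± 0.25 (adjusted p = 0.011), which was 0.11 without that knock-in library, 0.72 and not called without the knock-in unstimulated library, -0.16 by library totals, and 0.77 and not called with no filter on low counts. Without wild-type LPS at 8 h the count of higher members was 3 instead of 1. LPS exceeded TNF at 8 h by 1.51 ± 0.25 (adjusted p = 0.00033), a call that held in every alternative run. Aurka, the kinase it activates, was at 6.14 and 5.61 CPM at 8 h of LPS, from 39.2 and 40.3 CPM.

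Knock-in cells had slightly less of this group than wild-type cells. Over the 9 pairs 16 of 40 genes were lower and 1 was higher in the knock-in, where 9.46% of tested genes were lower and 10.3% higher. The lower ones were 9 of 21 replication genes (Mcm2, Mcm3, Mcm4, Mcm5, Mcm7, Mcm10, Cdc45, Fen1 and Uhrf1) and 7 of 17 mitosis genes (Ccna2, Bub1, Bub1b, Birc5, Kif11, Top2a and Mki67), with called differences of -0.37 to -0.15. The median difference was -0.15 over either set. Mcm3 was lower by -0.28 ± 0.05 (adjusted p = 0.0018), Uhrf1 by -0.27 ± 0.05 (adjusted p = 0.0014), Mcm5 by -0.23 ± 0.04 (adjusted p = 0.0019) and Top2a by -0.23 ± 0.05 (adjusted p = 0.0085), each in 9 of 9 pairs. Of all members 8 were lower in 9 of 9 pairs and 29 in at least 7 of 9. Pairs were not counted in this way over all tested genes, so these counts cannot be read as particular to the group. The higher gene was Pcna (0.38 ± 0.09, adjusted p = 0.015, higher in 8 of 9 pairs).

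These genotype differences were small and some rested on single libraries. By library totals 25 members were lower, and the share of called genes that were higher in the knock-in went from 52.1% to 27.9%. That scaling moved the median tested gene by -0.076, beside the median difference of -0.15 over either set by TMM. The share of all tested genes called lower by library totals is not given here. The count of lower members was 10 without any 1 of wild-type LPS at 1 h, TNF at 0.5 h or TNF at 8 h, or of knock-in LPS at 1 h, TNF at 0.5 h, TNF at 3 h or TNF at 8 h. The mitosis count of 7 fell to 2 without either LPS library at 1 h, to 3 without either TNF library at 0.5 h, and to 4 without either library at 0.5 or 3 h of LPS or at 1, 3 or 8 h of TNF. The calls of Mcm2, Mcm3, Mcm4, Mcm5, Uhrf1, Kif11 and Top2a held in every alternative run. Markers of other cells differed between the genotypes as well: 4 fibroblast markers summed to 97.4 to 183 CPM in wild-type libraries and 13.7 to 70.2 CPM in RelA-TA-KI libraries, and 5 neutrophil markers to 63.0 to 125 CPM and 30.3 to 87.6 CPM. The fibroblast difference lay in Col1a1 and Col1a2. Col3a1 and Pdgfra were at most 1.77 and 1.49 CPM in any library, and Col3a1 was higher in the knock-in at every time of LPS. The part of these markers in the genotype result was not tested.

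**Figure D5:**
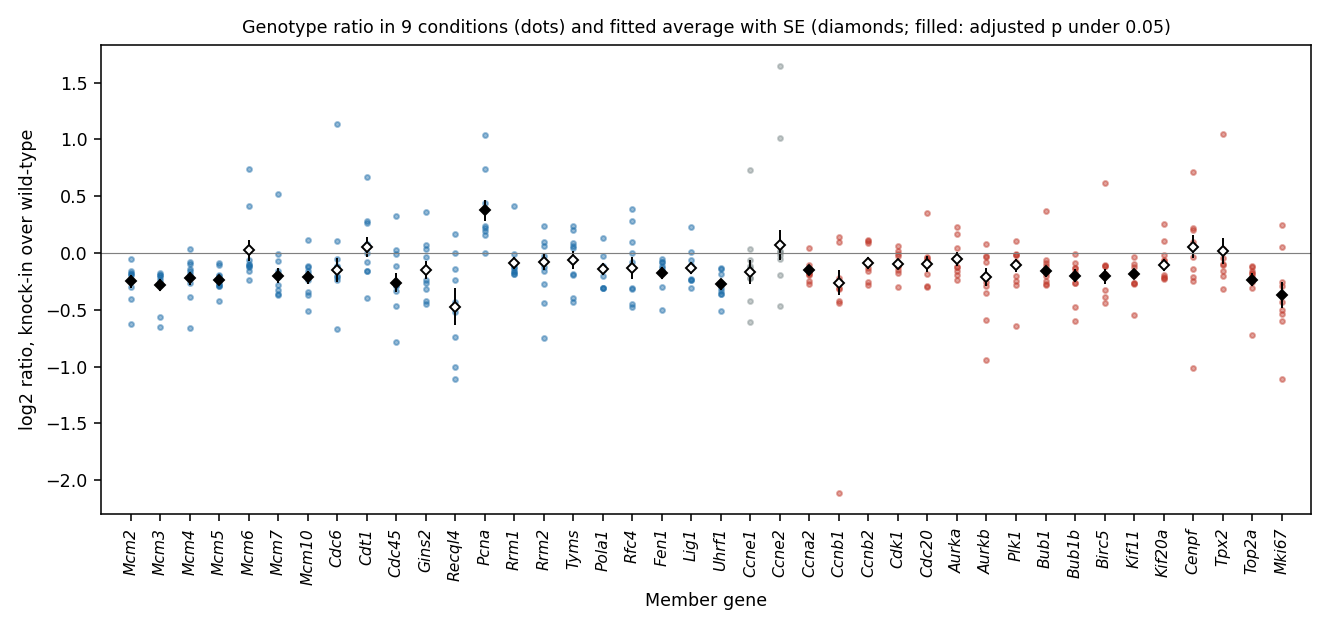
Log2 difference between knock-in and wild-type libraries for each of the 40 genes (average over the 9 conditions with its standard error, and the 9 single pairs as points). Filled diamonds mark an adjusted p under 0.05; the 16 called genes other than Pcna lie at -0.37 to -0.15, and Pcna is the only called gene above 0.

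Mki67 illustrates how pairs differed. Wild-type cells held 555 CPM unstimulated, 792, 746, 746 and 165 CPM along LPS and 613, 628, 588 and 313 CPM along TNF. Knock-in cells held 576 CPM, then 545, 494, 527 and 76.2 CPM along LPS and 513, 514, 698 and 232 CPM along TNF. The knock-in library was the lower one in 7 of 9 pairs, all but the unstimulated one and TNF at 3 h. Its average difference was -0.37 ± 0.11 (adjusted p = 0.038), and the call was lost without single libraries such as wild-type LPS at 1 h (-0.34) and with no filter on low counts.

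The genotype difference was not found to change with time or stimulus in this group. Late times (3 and 8 h) against early times (0.5 and 1 h) called 0 of 40 genes by edgeR's quasi-likelihood test, with 0 at an unadjusted p under 0.05, where 0.398% of tested genes were called. LPS against TNF called 0 of 40, with 3 at an unadjusted p under 0.05, and 0.0% of tested genes, where DESeq2 called 4 genes. DESeq2 and limma-voom called 0 of the 40 in both comparisons. Because these tests pool times or stimuli, they can miss a genotype difference limited to 1 condition. At 8 h of LPS Pcna stood at 341 CPM in knock-in and 166 CPM in wild-type cells, and Tpx2 at 294 and 142 CPM. Unstimulated, Pcna stood at 202 and 202 CPM and Tpx2 at 117 and 130 CPM. Each of these is a single pair of libraries.

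Other genes of the same pathways were taken from lists. The shares of all tested genes called lower were 22.7% at 3 h of LPS, 5.86% at 3 h of TNF, 33.9% at 8 h of LPS and 14.8% at 8 h of TNF. Of 42 other replication genes, 3 were lower and 0 higher at 1 h of LPS, where 293 of 11308 tested genes were lower and 481 higher. Of the same 42, 29 were lower and 1 higher at 3 h of LPS, and 26 lower and 0 higher at 3 h of TNF. At 8 h, 36 were lower and 3 higher with LPS, and 36 lower and 0 higher with TNF. Of 43 other mitosis genes, 23 were lower and 3 higher at 3 h of LPS, 10 lower and 0 higher at 3 h of TNF, 42 lower and 1 higher at 8 h of LPS, and 39 lower and 1 higher at 8 h of TNF. Their median changes at 3 h of TNF were -0.60 for the replication and -0.20 for the mitosis list. The checkpoint mediator Clspn (-5.05 ± 0.22), Pold1 (-4.32 ± 0.20) and Pole2 (-4.23 ± 0.43), subunits of polymerases delta and epsilon, led the replication list at 8 h of LPS. Anln, a cytokinesis scaffold (-4.95 ± 0.15), Espl1, the separase (-4.37 ± 0.18), and the kinesin Kif18b (-4.31 ± 0.31) led the mitosis list. At 3 h of TNF Clspn, Pold1 and Pole2 were called lower, at -0.86, -0.84 and -0.785. Anln, Espl1 and Kif18b were at -0.07, -0.08 and -0.49 there and not called.

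The G1 regulators were called in shares near those of all genes. Of 12 tested G1 cyclins, CDKs and CDK inhibitors, 5 were higher and 3 lower at 8 h of LPS, and 3 were higher and 3 lower at 8 h of TNF, where 33.8% of all tested genes were higher and 33.9% lower with LPS and 17.1% and 14.8% with TNF. Ccnd2, cyclin D2, went from 37.4 to 334 CPM in wild-type cells and from 24.2 to 571 CPM in knock-in cells at 8 h of LPS, a rise of 4.06 ± 0.53 (adjusted p = 6.2e-05). The CDK inhibitor Cdkn2d rose by 2.38 ± 0.31 and its relative Cdkn2c fell by 3.26 ± 0.18. Of 15 E2F and RB family genes 10 were lower and 2 higher at 8 h of LPS and 10 lower and 0 higher at 8 h of TNF, beside the same shares. E2f7, an atypical E2F repressor, went from 23.3 to 0.323 CPM in wild-type cells and from 21.9 to 0 CPM in knock-in cells at 8 h of LPS. The activator E2f2 fell by 3.40 ± 0.23 and the E2F partner Tfdp2 by 2.98 ± 0.30 there.

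Exons of 11 of the 40 genes overlap a gene on the opposite strand, and the sources used here do not give the strand setting of the counting, which makes their values less certain. These are Mcm7, Cdc45, Gins2, Recql4, Rfc4, Fen1, Lig1, Ccne2, Ccna2, Cdc20 and Kif20a. Mcm2, Mcm3, Mcm5 and Uhrf1 of the replication set and Bub1b, Aurka and Kif11 of the mitosis set have no such overlap.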

How the data were processed

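Poly(A) RNA of 18 libraries was read, and the authors deposited a table of raw counts per gene with mm10 coordinates, 1 column per library, not normalized. Per the submitters' processing notes cutadapt 1.12, STAR and featureCounts 1.5.0 were used, and DESeq2 is named too; annotation release and strand setting: not given in the sources used here. Of 45706 identifiers 563 had no symbol and 24529 were at 0 in every library.

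The 11308 genes passing filterByExpr (minimum count 10, total 15) were fitted by edgeR 4.0.16 (R 4.3.3), using TMM scaling and robust quasi-likelihood tests of 9 conditions plus genotype (8 residual degrees of freedom, common biological coefficient of variation 0.111), or 6 degrees of freedom for genotype effects by phase or stimulus. P-values were Benjamini-Hochberg adjusted over all tested genes, and standard errors were worked back from the F statistic. Because 1 library per genotype stands for each condition, the spread is how the genotype pairs differ. Alternatives were DESeq2 1.42.0 (size factors, and its own test), limma-voom (limma 3.58.1), library totals, no filter, a filter of 1 CPM in 9 libraries, and leaving out each library. The procedure was tested on simulated data. Every member is accounted for; of other lists the 3 called genes with the largest change at 8 h of LPS and a mean log2 CPM of 1 or more are named. Members and lists were chosen with earlier results of these data known. Floors of 3 counts cover counting error only. Promoter windows and start sites are from RefSeq, and a gene with several windows was counted once.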

Additional observations from a re-analysis of the deposited data

How the results depend on the processing

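The tests reported pair the genotypes by condition. No further pairing was possible because of replicate numbers, which are 1 in every group. Of 258 member calls 190 held under every alternative run, and 1 reversed: the rise of Tpx2 at 8 h of LPS was -0.16 by library totals. The cause of the changes given here was not tested.

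By library totals, higher members numbered 1 at 3 h of LPS, 0 at 8 h of LPS, 2 for LPS against TNF at each late time and 0 for LPS at 8 h against 3 h. Mitosis genes lower at 3 h of TNF numbered 4. LPS against TNF at 3 h then gave 31 lower members (14 replication, 16 mitosis), with 6651 genes called in either direction. The knock-in against wild-type gave 25 lower members (14 replication, 11 mitosis). The shares of all tested genes called lower by library totals are not given here. These counts therefore cannot be read as particular to the group. Late against early genotype effects called 29 genes by library totals, 147 with no filter and 122 with DESeq2. With no filter, higher members numbered 0 at 8 h of LPS, 2 for LPS against TNF at 3 h and 0 for the genotype; lower mitosis genes numbered 0 at 3 h of TNF and 4 for the genotype. With DESeq2 0 mitosis genes were lower at 3 h of TNF, and 67 genes were called at 0.5 h and 190 at 1 h of TNF. LPS against TNF at 0.5 h called 11 genes with no filter, 18 with DESeq2 and 12 with limma-voom, and the knock-in difference between LPS and TNF over all times 3 with no filter and 4 with DESeq2.

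Leaving out each library gave 52 to 116 called genes at 0.5 h of LPS, 343 to 981 at 1 h of LPS, 19 to 47 at 0.5 h of TNF, 35 to 155 at 1 h, 533 to 2010 at 3 h and 2337 to 4143 at 8 h of TNF. LPS against TNF called 0 to 7 genes at 0.5 h and 37 to 162 at 1 h, TNF at 8 h against 3 h 905 to 2282, late against early genotype effects 12 to 77, and the genotype difference between stimuli 0 to 1. Higher members ranged from 0 to 3 at 8 h of LPS, from 2 to 6 for LPS against TNF at 3 h, from 0 to 1 for LPS and for TNF at 8 h against 3 h. Lower members ranged from 8 to 20 at 3 h of TNF (replication 8 to 17, mitosis 0 to 1) and from 10 to 18 for the genotype (mitosis 2 to 6). The replication minus the mitosis median ranged from -0.17 to -0.050 at 3 h of LPS and from -0.47 to -0.35 at 3 h of TNF. Where a left-out library leaves a condition with 1 sample, that sample is assumed to vary like the others.

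At 4663650 to 6721917 counts per library, genes such as Recql4, Cdc6, Cdc20 and Ccnb1 rest on few counts at 8 h of LPS.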
